A study of Pinus armandii with 6 samples.

Results

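ATP-binding cassette (ABC) transporters were followed in kernels of the Chinese white pine, Pinus armandii, between harvests at the end of August and at the end of September. Members were the unigenes whose deposited gene symbol is ABC, a subfamily letter from A to I and a number. There were 167 of them, under 69 symbols, among 65117 unigenes. A unigene is an assembled transcript, and several unigenes can come from 1 gene. RNA sequencing was done on kernels alone, with 3 libraries for each month. The labels call the libraries biological replicates but give no tree, genotype, treatment or cone for a library. The p-values therefore measure the spread between libraries, part of which may be technical. A pine kernel holds the embryo within a storage tissue, and in such mixed tissue fewer cells of a type and less RNA per cell cannot be told apart.

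ABC proteins bind and split ATP. In most subfamilies that energy moves a substrate across a membrane, and the largest plant subfamilies, B, C and G, carry hormones, lipids, conjugates and defence compounds. Subfamilies E and F have no membrane part and act on ribosomes, and subfamily I gathers small proteins that resemble parts of bacterial transporters. In Arabidopsis seeds, ABC proteins are known to load phytate into vacuoles, to move abscisic acid between endosperm and embryo, and to export cuticle lipids.

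Subfamily G had 62 unigenes, C had 51, B had 22, I had 15, A had 7, E had 5 and F had 4, and no unigene had a symbol of subfamily H. A best database hit in a gymnosperm was given for 112 members, of which 74 were in Taxus, 25 in Picea and 12 in Pinus. The other 55 had a hit outside the gymnosperms. The hit of 44 members names an ABC or drug resistance protein, and that of 122 reads hypothetical, unknown or uncharacterized, so a symbol marks resemblance. With another member, 87 members shared their best hit, and such unigenes may divide the reads of near-identical copies. Total counts were 12849649 to 17379628 per library, and ABC members held 0.539% to 0.603% of them. Of the members, 133 to 150 had a count in a given library.

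Unigenes matched by the words vicilin, legumin, globulin, 2S albumin or oleosin, taken as kernel storage markers, had a summed level of 2334 to 2599 FPKM in August and 2816 to 3290 FPKM in September over 17 unigenes, 2 of which were at 0 in September. Of 10 tested in the edgeR test described below, 5 were higher and 2 lower (50% and 20%, against 35.4% and 32.5% of all tested unigenes). The most abundant, the globulin COS-1 (Unigene0000942), went from 1175 ± 197 to 1677 ± 257 FPKM. The main oleosin (Unigene0045277) went the other way, from 406 ± 16.9 to 148 ± 10.1 FPKM, and 2 low unigenes (C3) match through the word macroglobulin. FPKM, deposited by the authors, is a fragment number scaled to transcript length and library size, and is the scale of every level given here. The 19 unigenes of chlorophyll-binding proteins and the small subunit of RuBisCO summed to 120 to 140 FPKM in August and 123 to 144 FPKM in September, with 2 at 0 in August and 3 in September. That sum hides opposite changes. Of 10 tested, 5 were higher and 3 lower (50% and 30%, against 35.4% and 32.5% of all tested unigenes), with a median log2 fold change of 0.94. Transcripts of other organisms differed between libraries. Those whose best hit is in Sphaeroforma or Ministeria, unicellular relatives of animals, summed to 91.5 to 194 FPKM in August and 44.7 to 59.7 FPKM in September. Of these 193 unigenes, 12 were at 0 in August and 61 in September. The 10 ABC unigenes that carry fungal gene symbols, which are not members and whose best hits are in Quercus suber, summed to 21.5 FPKM in the second August library, 0.152 and 0 FPKM in the other August libraries and 4.88 to 6.44 FPKM in September. None of the 167 members has a Quercus best hit (0 of 167). The part of these transcripts in the results was not tested.

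The study compared gene expression in kernels between the harvests, and ABC genes went both ways. Most of the unigenes described with every library follow a rule on level and size of change. ABCG5, ABCI8, ABCC12, the second ABCC5 unigene and the others were picked with their values in view, mostly for a known role or a shared symbol. ABCG22, an ABCG39 unigene, ABCB19, ABCB14 and the ribosome-associated ABCF1 rose, while ABCC10, ABCI17, ABCE2, ABCF5, an ABCG53 unigene and another ABCG39 unigene fell. The phytate transporter ABCC5, the most abundant of the membrane transporters, fell by 0.25 on the log2 scale, from 103 ± 5.4 to 86.3 ± 3.94 FPKM (SD, n = 3 each).

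The low-count filter of edgeR kept 100 of the 167 members. By its quasi-likelihood test with Benjamini-Hochberg adjustment over 23216 tested unigenes, 71 of these 100 passed, where 67.8% of all tested unigenes passed. Higher in September were 40 members (40% of those tested, against 35.4% of all tested unigenes), and 31 were lower (31% against 32.5%). These shares are near those of the whole table. At least 2-fold higher were 22 members, where 24.3% of all tested unigenes were, and 15 were at least 2-fold lower, against 12.4%. The median log2 fold change was -0.07 over the tested members and 0.03 over all tested unigenes. The months did not overlap in 74 members, against 72.9% of all tested unigenes. With the counts of all unigenes of a symbol summed, 55 symbols were tested, of which 20 were higher and 18 lower. Longer unigenes weigh more in such sums of counts. Leaving out each library in turn left 54 of the 71 calls in place in every run, 30 higher and 24 lower.

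**Figure D1:**
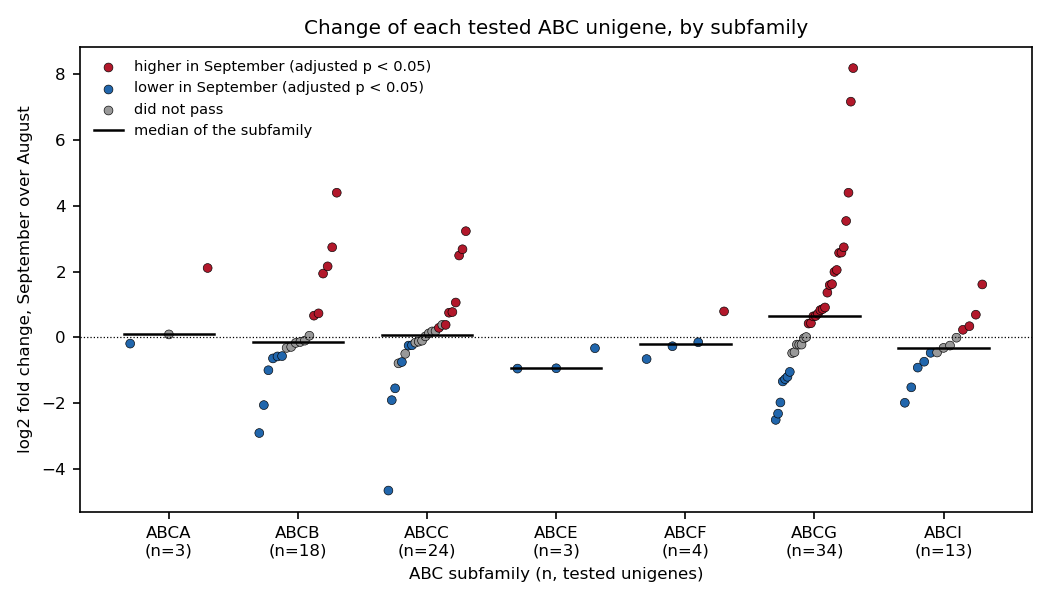
Log2 fold change of September over August (vertical axis) for each tested ABC unigene of the subfamilies shown. Points are unigenes, coloured by the call at an adjusted p of 0.05, and bars are subfamily medians. The median of ABCG is 0.64 and that of ABCE is -0.94, and the highest points of ABCG, above 7, are unigenes with 0 counts in August whose fitted fold is no bound.

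Subfamily G had the most rises. Of 34 tested members 20 were higher (58.8%, against 35.4% of all tested unigenes) and 7 were lower (20.6%, against 32.5%), and the median log2 fold change was 0.64. Low-level unigenes rose more often in the whole table as well. Among all tested unigenes 54.9% were higher at a mean under 1 FPKM, 37.1% at 1 to 10 FPKM and 23.8% at 10 FPKM or more, and over the ABC members the counts were 11 of 20, 21 of 48 and 8 of 32. Whether subfamily G differed from other genes of its level was not tested. When unigenes of a symbol were summed, 7 of 15 ABCG symbols were higher and 2 lower.

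Per length, the summed level showed which subfamilies carry most of the transcript. In August subfamily F had 574 ± 33.3 FPKM, C had 259 ± 14.8, E had 254 ± 8.82, G had 240 ± 5.08, I had 239 ± 11.7, B had 145 ± 7.42 and A had 40.6 ± 2.83 FPKM (SD, n = 3 each). Between libraries C overlapped E, G and I, and I overlapped E and G as well, while E lay above G. F lay above all of these and B below them. In September the order was F with 725 ± 43.1, G with 325 ± 15.9, C with 234 ± 7.44, E with 182 ± 3.82, I with 181 ± 5.12, B with 163 ± 4.08 and A with 38.1 ± 1.64 FPKM. G had moved clear of C, and E and I overlapped. The sum over all members was 1770 ± 50.3 FPKM in August and 1866 ± 60.1 FPKM in September, and these ranges overlapped. The 10 most abundant unigenes made up 61.9% of it in August and 63.9% in September.

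**Figure D2:**
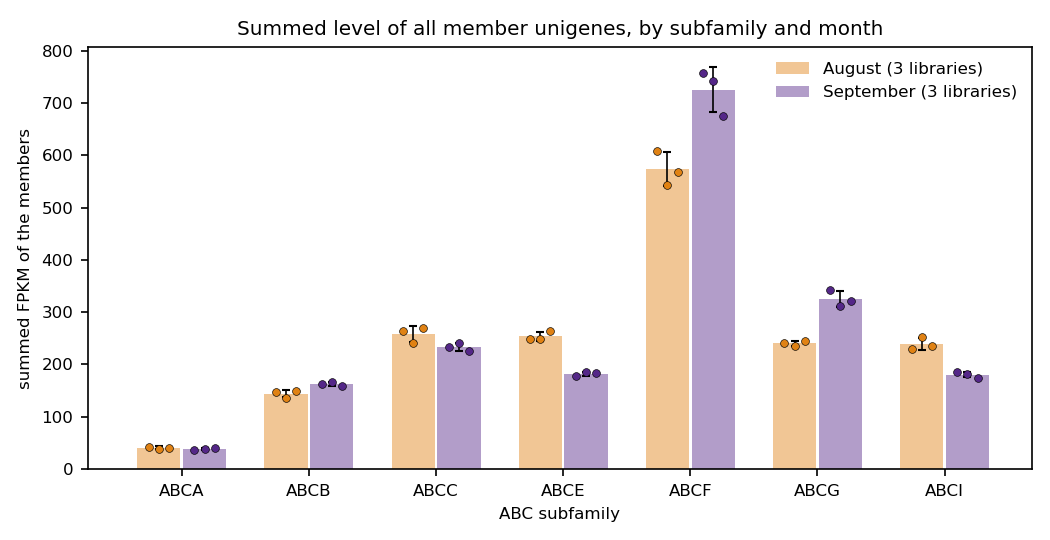
Summed FPKM of all member unigenes of a subfamily (vertical axis), by subfamily. Bars are the means of 3 libraries, error bars their SD and points the libraries. September lies above August in ABCF (725 against 574 FPKM) and ABCG (325 against 240), and below it in ABCE (182 against 254) and ABCI (181 against 239).

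Among the hormone-linked members of subfamily B, the most pronounced rise at a high level was in ABCB19, which exports auxin in Arabidopsis. Its main unigene (Unigene0072019) had 13, 9.82 and 12.4 FPKM in the August libraries and 43.4, 46.7 and 44.9 FPKM in the September libraries. All September values lay above all August values, and the fold change was 3.84 (log2 1.94, SE 0.0941, adjusted p = 1.5e-07). A second ABCB19 unigene (Unigene0001635), whose hit is a moss protein, was higher by 0.73 on the log2 scale (adjusted p = 0.0432), and it did not pass on leaving out August library 1, August library 3 or September library 2 (adjusted p = 0.0976, 0.145 and 0.177). ABCB14 (Unigene0027301), an importer of malate into guard cells in Arabidopsis, had 1.11, 0.776 and 1.02 FPKM in August and 4.11, 4.45 and 4.5 FPKM in September. It rose 4.48-fold (log2 2.16, SE 0.156, adjusted p = 1.6e-06) with no overlap. The hit of this unigene is a Pinus radiata protein called ABCB2. ABCB1 (Unigene0047440), another auxin exporter in Arabidopsis with a Pinus radiata hit, rose from 2.14 ± 0.108 to 3.36 ± 0.149 FPKM (log2 fold change 0.66, SE 0.117, adjusted p = 6.4e-04).

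Other members of subfamily B fell or did not pass. Both unigenes of ABCB20, which with its close relative moves auxin in Arabidopsis, fell, the larger (Unigene0070229) from 19.4 ± 1.1 to 13.1 ± 0.501 FPKM (log2 fold change -0.57, SE 0.0629, adjusted p = 2.8e-05). ABCB29 (Unigene0063427) had 6.07, 5.39 and 5.13 FPKM in August and 3.13, 2.21 and 2.95 FPKM in September. It fell by 1.00 on the log2 scale (SE 0.168, adjusted p = 4.4e-04). The most abundant ABCB unigene, ABCB2 (Unigene0043341), had 30.4, 28.7 and 34.1 FPKM in August and 30, 28.3 and 26 FPKM in September. Its months overlapped and it did not pass (log2 fold change -0.14, SE 0.0766, adjusted p = 0.131), although without the second August library it passed as lower (-0.21, adjusted p = 0.0435). The mitochondrial ABCB25, which serves iron-sulfur proteins in Arabidopsis, had 3 tested unigenes with log2 fold changes of -0.32, -0.10 and -0.17, none of which passed (adjusted p = 0.199, 0.544 and 0.0634). The last of these (Unigene0074478) passed without the second August library (adjusted p = 0.0257).

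Low-level unigenes of subfamily B moved most in fold. ABCB9 (Unigene0070527) had 0.027, 0.063 and 0.165 FPKM in August, from 9 counts in all, and 1.54, 1.84 and 2.22 FPKM in September. Its log2 fold change was 4.40 (SE 0.466, adjusted p = 2.1e-05), and 5.28 without the third August library. Of 4 tested ABCB11 unigenes, 1 rose, 2 fell and 1 did not pass. The largest fall (Unigene0005769) went from 2.37, 2.32 and 1.83 FPKM to 0.587, 0.154 and 0.104 FPKM. No September value reached an August value, and it fell by 2.91 on the log2 scale (SE 0.499, adjusted p = 5.0e-04), or by 3.98 without the first September library. ABCB9 and the ABCB11 unigene that rose (Unigene0005768; log2 fold change 2.74, adjusted p = 2.6e-04) share a Taxus best hit.

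Subfamily C, whose plant members mostly sit in the vacuole membrane, had 8 of 24 tested unigenes higher and 6 lower (33.3% and 25%, against 35.4% and 32.5% of all tested unigenes). The count of rises was 5 with DESeq2, with no filter on low counts, without the first August library or without the first September library. ABCC5, the phytate transporter of Arabidopsis, was led by Unigene0070227, with 103, 97.2 and 108 FPKM in August and 81.8, 89.3 and 87.6 FPKM in September. It fell in all September libraries relative to all August libraries, by 0.25 on the log2 scale (SE 0.0591, adjusted p = 0.00384). Its best hit is the multidrug resistance associated protein 1 of Pinus radiata. The second tested ABCC5 unigene (Unigene0005891) had 11, 12 and 11 FPKM in August and 12.9, 14.4 and 11.2 FPKM in September and did not pass (adjusted p = 0.092), but passed as higher without the third September library (adjusted p = 0.0191). ABCC2, which carries conjugates and phytochelatins into the vacuole in Arabidopsis, was led by Unigene0001836, with 43 ± 3.02 FPKM in August and 39.9 ± 0.317 FPKM in September. That difference did not pass (log2 fold change -0.10, adjusted p = 0.165), except without the second August library (adjusted p = 0.0266). Of 4 tested ABCC2 unigenes, 1 was lower and 3 did not pass. The lower one (Unigene0003393) went from 6.54 ± 0.499 to 3.88 ± 0.648 FPKM (log2 fold change -0.75, SE 0.145, adjusted p = 0.0011). Its call held on leaving out each library in turn.

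The main change of subfamily C was in ABCC10. Unigene0001403 had 27, 25.8 and 29 FPKM in August and 8.57, 9.04 and 3.93 FPKM in September. The months did not overlap, and it fell by 1.91 on the log2 scale (SE 0.231, adjusted p = 5.1e-05). A shorter ABCC10 unigene (Unigene0043576) rose from 0.671 ± 0.186 to 4.29 ± 0.885 FPKM, and the symbol as a whole fell by 1.76 on the log2 scale when its 5 unigenes were summed (adjusted p = 3.2e-05). A further ABCC10 unigene (Unigene0040653) had 35 counts in August and 1 in September, a ratio of 34.7 with an exact 95% counting interval of 5.83 to 1409. ABCC8 (Unigene0006139), of 2111 bases, had 0.382, 0.035 and 0.301 FPKM in August and 1.82, 1.94 and 3.28 FPKM in September. It was the largest rise of the subfamily at 1 CPM or more, CPM being counts scaled to library size (log2 fold change 3.23, SE 0.511, adjusted p = 3.0e-04). ABCC8 was spread over 14 unigenes, of which 4 were tested. ABCC12 (Unigene0004755) shows how 1 library can carry a call. It had 2.19, 0.937 and 8.37 FPKM in August and 1.3, 1.25 and 1.39 FPKM in September, so the months overlapped. Its log2 fold change of -1.55 (adjusted p = 0.0466) became -0.30 (adjusted p = 0.457) once the third August library was left out, and the call was also lost without the first, the second or the third September library (adjusted p = 0.0903, 0.0968 and 0.096).

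Subfamily A had 3 tested unigenes. The longest of all ABC unigenes was ABCA1 (Unigene0003314, 7240 bases), with 34.1, 30.9 and 33.9 FPKM in August and 27.3, 28.5 and 30.4 FPKM in September. It fell by 0.19 on the log2 scale (SE 0.0638, adjusted p = 0.0219), a call lost without the first or the second September library (adjusted p = 0.0899 and 0.0637). ABCA2 (Unigene0070101) rose from 0.572, 0.38 and 0.493 FPKM to 2.11, 2.27 and 1.87 FPKM (log2 fold change 2.11, SE 0.251, adjusted p = 4.6e-05), and ABCA7 did not pass (adjusted p = 0.515).

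The soluble subfamilies E and F held the most abundant ABC transcripts. ABCF1 (Unigene0013396), of a family of ribosome-binding ATPases, had 318, 266 and 279 FPKM in August and 532, 501 and 455 FPKM in September. All September values were above all August values, and it rose 1.73-fold (log2 0.79, SE 0.0814, adjusted p = 1.7e-05). It made up 16.2% of the summed FPKM of all members in August and 26.5% in September. The other F members were lower. ABCF5 (Unigene0055121) went from 87.5, 84.9 and 93.1 FPKM to 52.9, 58.4 and 55.7 FPKM and fell by 0.66 on the log2 scale (SE 0.0594, adjusted p = 6.7e-06). ABCF3 (Unigene0041293) fell by 0.27 on the log2 scale (adjusted p = 0.00492). ABCF4 (Unigene0072423) stood at -0.15 in log2 fold change (adjusted p = 0.0427), a call lost without the first August library or the first or the third September library (adjusted p = 0.0682, 0.0894 and 0.181).

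ABCE2 splits ribosomes after translation ends, a role known from yeast and other eukaryotes. The main unigene (Unigene0049108) had 182, 181 and 195 FPKM in August and 145, 150 and 147 FPKM in September, and fell by 0.33 on the log2 scale (SE 0.0524, adjusted p = 2.9e-04). A second (Unigene0049107), which shares its best hit, had 46.8, 46.1 and 46 FPKM in August and 23.4, 23.7 and 24.4 FPKM in September. It fell by 0.95 on the log2 scale (SE 0.0549, adjusted p = 3.9e-07). Neither unigene overlapped between months. The remaining tested ABCE2 unigene (Unigene0049109) fell by 0.94 on the log2 scale, and its hit is an uncharacterized protein of Solanum pennellii. Summed, the symbol fell by 0.49 on the log2 scale (SE 0.0511, adjusted p = 1.8e-05).

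In subfamily G, the smaller transporters that work as dimers were led by ABCG11 and ABCG22. ABCG11 exports cutin and wax lipids in Arabidopsis, and its most abundant unigene (Unigene0006342) had 68.2, 58.6 and 58 FPKM in August and 61.9, 46.7 and 50 FPKM in September. The months overlapped and it did not pass (log2 fold change -0.22, SE 0.106, adjusted p = 0.0958), although it passed as lower without the first September library (-0.34, adjusted p = 0.00694) and with the replicate number as a block (-0.22, adjusted p = 0.0105). Of 8 tested ABCG11 unigenes 5 were higher and 3 did not pass, and the sum over the symbol stood at 92.8 and 92.5 FPKM (adjusted p = 0.817). Among the rises, Unigene0002030 did not pass without the first August library (adjusted p = 0.0615), and Unigene0035602 did not pass without any of the libraries but the first August one (adjusted p = 0.053 to 0.133). The largest ABCG11 rise was Unigene0051783, with 0 counts in August and 53 in September, at least 17.8-fold higher against a floor of 3 counts per month.

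ABCG22 alters stomatal behaviour when lost in Arabidopsis. All 4 of its unigenes rose, and they have 2 best hits between them. Unigene0065944 had 20.1, 14 and 15.7 FPKM in August and 85.1, 54.4 and 66.6 FPKM in September. All September values lay above all August values, and it rose 4.15-fold (log2 2.05, SE 0.171, adjusted p = 4.1e-06). Unigene0031022 rose from 13.2 ± 1.54 to 33.9 ± 3.57 FPKM (log2 fold change 1.36, SE 0.0992, adjusted p = 1.7e-06). The symbol as a whole went from 30.6 to 106 FPKM (log2 fold change 1.81, SE 0.105, adjusted p = 4.0e-07).

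Further smaller G members rose. ABCG5 (Unigene0003844), linked to the cuticle of Arabidopsis seedlings, had 0.508, 0.052 and 0.158 FPKM in August and 2.85, 2.66 and 3.16 FPKM in September (log2 fold change 3.54, SE 0.475, adjusted p = 1.0e-04), and the log2 fold change was 4.68 without the first August library. ABCG23 (Unigene0068244) rose by a log2 fold change of 0.91 and an ABCG3 unigene (Unigene0069460) by 0.72. ABCG7 (Unigene0071231) and ABCG14 (Unigene0030713), a cytokinin exporter in Arabidopsis, did not pass, at 15.7 ± 1.2 against 15.3 ± 1.48 FPKM and 13.8 ± 0.196 against 11.8 ± 1.53 FPKM (adjusted p = 0.79 and 0.0653). ABCG14 passed as lower without the second September library (adjusted p = 0.0451).

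The large G transporters of the pleiotropic drug resistance type went both ways. ABCG39 was carried by 4 tested unigenes. Unigene0037998 had 1.1, 0.587 and 0.391 FPKM in August and 16, 14.4 and 14.1 FPKM in September. It rose 21.2-fold (log2 4.40, SE 0.244, adjusted p = 3.1e-07), the largest rise among ABC members at 5 CPM or more. Unigene0014626 went from 3.59, 3.12 and 3.52 FPKM to 10.4, 15 and 15.3 FPKM, a 3.98-fold rise (log2 1.99, SE 0.143, adjusted p = 1.5e-06). Unigene0052785 went the other way, from 17, 19.9 and 21.4 FPKM to 4.21, 3.65 and 3.73 FPKM. It fell by 2.32 on the log2 scale (SE 0.123, adjusted p = 2.3e-07), and none of these 3 unigenes overlapped between months. The 3 have different best hits, and summed with the fourth the symbol had a log2 fold change of 1.34 (SE 0.0671, adjusted p = 1.7e-07), the reverse of Unigene0052785. That sum is of counts, in which longer unigenes weigh more. In FPKM the symbol went from 25 in August to 33.7 in September.

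Unigenes outside the symbol rule share the best hit of Unigene0052785, and their choice was made after their values were seen. TUR2 (Unigene0072124) had 53.3 ± 4.14 FPKM in August and 44.7 ± 1.47 FPKM in September (log2 fold change -0.25, adjusted p = 0.00731). PDR1 (Unigene0072123) went from 34.6 ± 2.9 to 28.8 ± 0.974 FPKM (log2 fold change -0.26, adjusted p = 0.00996). These fell by far less than Unigene0052785, and reads can be divided between them. Another PDR1 unigene (Unigene0059164), with a different hit, fell by 1.92 on the log2 scale (adjusted p = 2.6e-06).

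ABCG53 (Unigene0072126, 758 bases), with a TUR2-type hit, had 13.6, 17.6 and 20 FPKM in August and 2.31, 2.96 and 3.7 FPKM in September. No values overlapped, and it fell by 2.51 on the log2 scale (SE 0.225, adjusted p = 6.6e-06), the largest fall among ABC members at 5 CPM or more. ABCG42 (Unigene0000945) rose from 6.2, 5.98 and 5.04 FPKM to 16, 19.3 and 16.2 FPKM (log2 fold change 1.59, SE 0.105, adjusted p = 9.2e-07). ABCG35 (Unigene0007286) had 0 counts in August and 105 in September, at 1.38, 0.633 and 1.64 FPKM, and was at least 35.3-fold higher against the floor of 3 counts per month. A further low ABCG35 unigene (Unigene0054460) was higher, with 9 counts in August and 61 in September (log2 fold change 2.74, adjusted p = 0.00708). Another ABCG35 unigene (Unigene0072471) fell by 1.05 on the log2 scale (adjusted p = 0.00258), and the sum of counts over the symbol did not pass (log2 fold change 0.19, adjusted p = 0.467). In FPKM that sum went the other way, from 11.3 in August to 7.9 in September. ABCG36, a transporter of defence compounds in Arabidopsis, had 2 of 4 tested unigenes higher and 2 lower, and both rises were fragile. Unigene0001822 passed without the third September library and Unigene0002061 without the third August library, and neither passed without any other library. ABCG31 (Unigene0061505), which exports abscisic acid from the endosperm in Arabidopsis, went from 1.01 ± 0.16 to 0.253 ± 0.0553 FPKM and fell by 1.98 on the log2 scale (SE 0.289, adjusted p = 1.8e-04). ABCG32 (Unigene0038250), of the cutin layer, stood at 0.86 in log2 fold change (adjusted p = 0.0262) and did not pass without the second or the third August library or the third September library (adjusted p = 0.0796, 0.068 and 0.117).

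**Figure D3:**
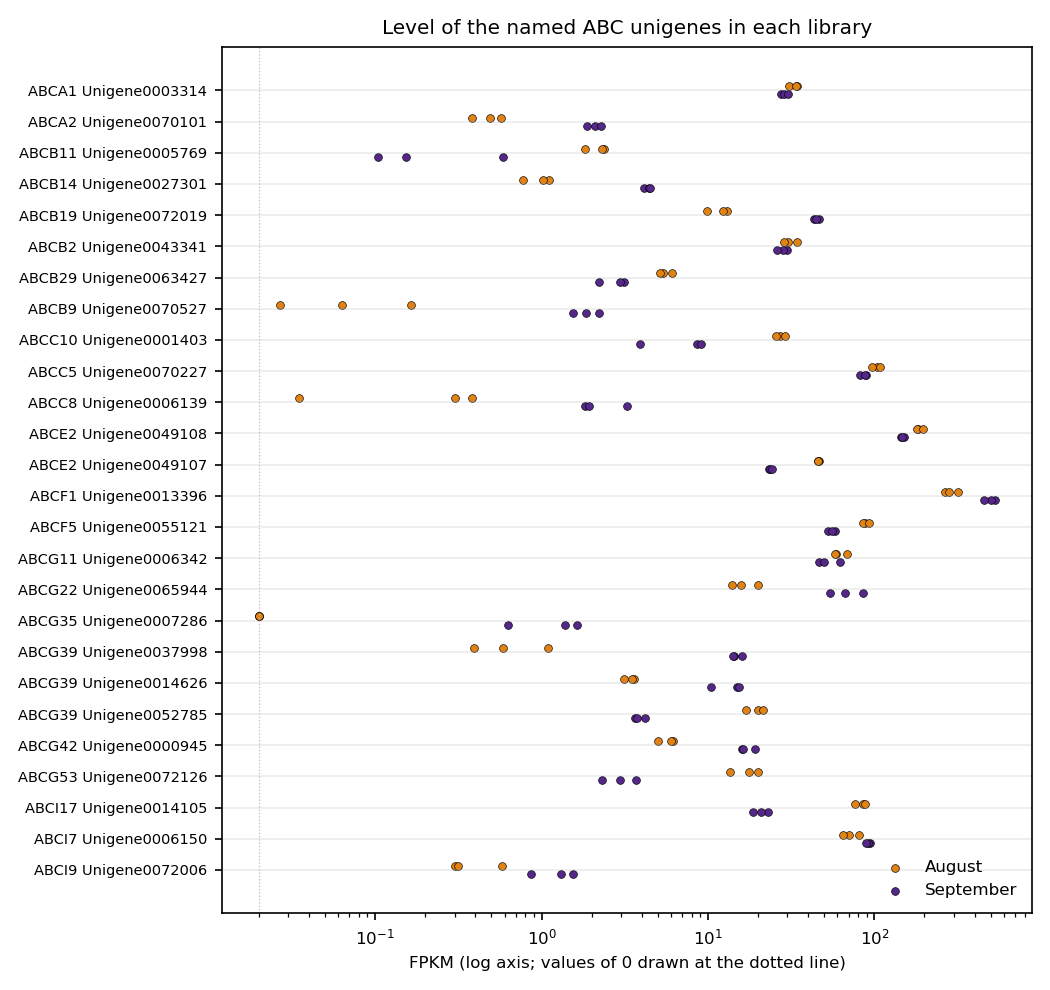
FPKM (log axis) of the named ABC unigenes in each of the 6 libraries, with August in orange and September in purple. Values of 0 are drawn at the dotted line. ABCF1 lies highest in both months, at 266 to 318 and 455 to 532 FPKM, and ABCG35 Unigene0007286 has 0 FPKM in all August libraries.

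Subfamily I had 13 tested unigenes, of which 4 were higher and 5 lower (30.8% and 38.5%, near the 35.4% and 32.5% of all tested unigenes). ABCI17, which resembles the rice aluminium tolerance protein STAR1, an ATP-binding partner of a membrane protein, fell in its main unigene and as a sum. Unigene0014105 had 76.2, 85.8 and 87.8 FPKM in August and 18.7, 23.1 and 20.9 FPKM in September. The months lay far apart, and it fell by 1.99 on the log2 scale (SE 0.0958, adjusted p = 1.5e-07). All 4 ABCI17 unigenes share a Picea best hit, and their sum fell by 1.71 on the log2 scale (SE 0.0753, adjusted p = 9.5e-08). Of 3 tested, 2 were lower and Unigene0014104 did not pass (log2 fold change -0.46, adjusted p = 0.131). The untested one (Unigene0059079) went the other way, with 1 count in August and 30 in September. ALS3 (Unigene0055046), the membrane partner in Arabidopsis, stood at 23.9 ± 1.98 and 21.3 ± 0.953 FPKM and did not pass (adjusted p = 0.14). A low ALS3 unigene (Unigene0026431), too low to test, had 0 counts in August and 31 in September. Both were chosen after their values were seen.

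ABCI6, ABCI7 and ABCI8 are the SUF proteins that assemble iron-sulfur clusters in plastids of Arabidopsis. They did not move together. ABCI7 (Unigene0006150) had 70.7, 81.4 and 64.8 FPKM in August and 94, 91.7 and 88.6 FPKM in September, and rose 1.27-fold (log2 0.34, SE 0.0827, adjusted p = 0.00409). ABCI6 (Unigene0069997) was higher by 0.23 on the log2 scale (adjusted p = 0.0195) and did not pass on leaving out August library 1 or 3 or September library 1 or 2 (adjusted p = 0.095, 0.0678, 0.0508 and 0.0659). ABCI8 (Unigene0072005) had 17.8, 20 and 18.8 FPKM in August and 10.9, 9.06 and 9.88 FPKM in September. It fell by 0.92 on the log2 scale (SE 0.099, adjusted p = 2.4e-05). ABCI9 (Unigene0072006), which shares its best hit with ABCI8, was low and rose from 0.3, 0.317 and 0.582 FPKM to 1.31, 0.868 and 1.55 FPKM (log2 fold change 1.61, SE 0.392, adjusted p = 0.00429). The mitochondrial ABCI1 (Unigene0001037), a cytochrome c maturation protein, rose by a log2 fold change of 0.69 (adjusted p = 0.0019). ABCI10 (Unigene0034621) fell by 0.74 on the log2 scale (adjusted p = 0.00898).

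Unigenes with the same symbol often disagreed. Of 19 symbols with more than 1 tested unigene, 6 had calls in both directions, 7 had rises without falls, 5 had falls without rises and 1 had no call. The 6 mixed symbols were ABCB11, ABCC10, ABCC14, ABCG35, ABCG36 and ABCG39. In ABCB19, ABCC3 and ABCG22 every tested unigene rose, and in ABCB20 and ABCE2 every tested unigene fell. The ABCC3 rise of Unigene0000868 still passed without the second August library but not without any other library. The fall in ABCC14 (Unigene0002162), a rise in ABCC14 (Unigene0009535) and the rises in ABCG36 were also lost when a library was left out. That ABCC14 rise (log2 fold change 1.06, adjusted p = 0.0498) then passed only without the third August library (adjusted p = 0.0371).

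**Figure D4:**
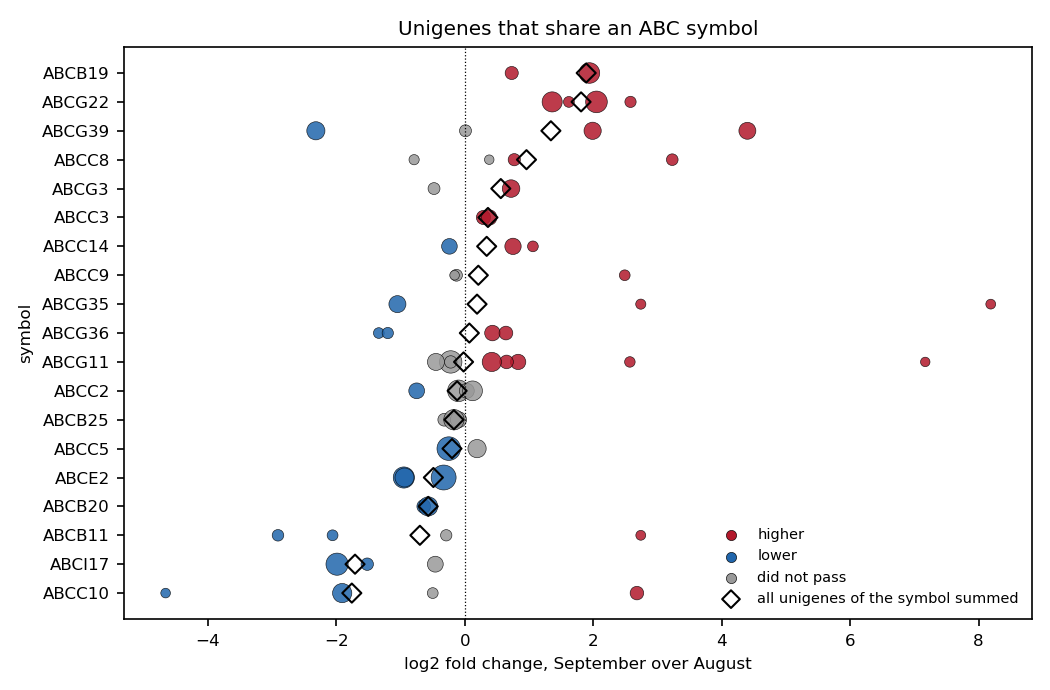
Log2 fold change of September over August (horizontal axis) for tested unigenes of the 19 symbols with more than 1 tested unigene. Circles are unigenes, larger at a higher mean FPKM and coloured by call. Diamonds are the fold change with the counts of all unigenes of the symbol summed. ABCG39 spans -2.32 to 4.40, with a sum at 1.34.

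The 67 members too low to test were short, with a median length of 480 bases against 2654 bases in members that rose and 2474 bases in members that fell. They came from subfamilies G (28), C (27), A (4), B (4), E (2) and I (2), and had 1 to 56 counts over all libraries. Among them 13 had no count in August and 5 had none in September. At these counts a difference was mostly not detectable. Among exceptions, chosen after their values were seen, ABCI17 Unigene0059079 had 1 count in August and 30 in September, a ratio of 30.3 with an exact 95% counting interval of 5.03 to 1235. ABCC6 Unigene0045373 had 24 counts in August and 1 in September, a ratio of 23.8 with an interval of 3.88 to 978.

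Other ABC proteins were those whose hit names an ABC transporter under a different symbol. There were 19, of which 8 were tested, 5 higher and 2 lower (62.5% and 25%, against 35.4% and 32.5% of all tested unigenes), and their median log2 fold change was 2.46. Without the 10 that carry fungal symbols, a choice made after the data were seen, 5 were tested, 2 higher and 2 lower, with a median of -0.31. The list left out the TUR2, PDR1, ALS3 and TGD unigenes described elsewhere, whose hits do not name an ABC transporter. Of these, TUR2, the 2 PDR1 unigenes described and TGD3 were lower, and the tested ALS3, TGD1 and TGD2 unigenes did not pass. Further tested PDR1 unigenes were lower (Unigene0005319 and Unigene0072125, log2 fold changes of -0.57 and -0.42) or did not pass (Unigene0008009, -0.29, adjusted p = 0.59). TUR2 (Unigene0072124), at 53.3 and 44.7 FPKM, was more abundant than any unigene of the list. The most abundant of the list (Unigene0070293), with an ABCC8-type hit, had 0.23, 0.544 and 0.118 FPKM in August and 7.24, 6.93 and 6.05 FPKM in September (log2 fold change 4.49, SE 0.441, adjusted p = 1.3e-05). The largest fitted rise, atrF (Unigene0018319), carries a fungal gene name, with 0 counts in August and 75 in September, at least 25.2-fold higher against the floor of 3 counts per month. The largest fall of the list was Unigene0008336, whose hit is a mitochondrial protein named ABC transporter 1 (log2 fold change -0.91, adjusted p = 0.035). It and ABC1 (Unigene0008337) entered the list by the words of their hits. So did a rise under the symbol CESA1 (Unigene0002375), whose hit is an MDR-like ABC transporter of Taxus (log2 fold change 0.42, adjusted p = 0.0135). Whether any of these is an ATP-binding cassette protein was not tested. MATE exporters, another family that carries metabolites out of the cytosol, had 10 of 31 tested members higher and 7 lower (32.3% and 22.6%, against 35.4% and 32.5% of all tested unigenes), and their median log2 fold change was -0.11. Their most abundant member, DTX40 (Unigene0016113), did not pass (adjusted p = 0.262). Auxin carriers of other families had 7 of 14 tested members higher and 6 lower (50% and 42.9%, against the same 35.4% and 32.5%), with a median of 0.49 against 0.03 over all tested unigenes.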

How the data were processed

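Kernel RNA was sequenced in 3 libraries for August and 3 for September. The submitters' processing notes name fastp, a read trimmer, and RSEM, a quantifier. Assembly, annotation and strand settings were not given in the sources used here. Per the file headers, the authors deposited raw estimated counts and FPKM for each unigene and library. Estimated counts were rounded, and 8 of 390702 values lay more than 1e-06 from a whole number. Total counts, 12849649 to 17379628 per library, set the precision. Tests used edgeR 4.0.16 in R 4.3.3 over all unigenes (TMM factors 0.993 to 1.01, filterByExpr by month, quasi-likelihood F test, Benjamini-Hochberg at 0.05). SE is the log2 fold change over the square root of F. DESeq2 1.42.0 and the other alternatives are in the closing section. Where a month had no count, folds use a floor of 3 counts over its libraries. Floors and intervals cover counting error only. The members and lists were chosen with earlier results of these data known. Named unigenes are, per subfamily, the most abundant and the largest passing rise and fall at 1 CPM or more, and over all members the 6 largest rises and 6 largest falls at 5 CPM or more without overlap. In other lists they are the most abundant member and, for other ABC proteins, the largest rise and fall. A member and a carrier that this rule named are not reported here, though the counts include them.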

Additional observations from a re-analysis of the deposited data

How the results depend on the processing

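Against 40 members higher and 31 lower, summing the unigenes of a symbol gave 20 symbols higher and 18 lower, and keeping members whose best hit names an ABC or drug resistance protein gave 8 higher and 10 lower. Both take in fewer features by construction. DESeq2 gave 34 and 28, no filter on low counts 32 and 33, and RLE size factors 40 and 31. Leaving out each library in turn gave 33 to 37 higher and 27 to 33 lower. With the replicate number as a block, 36 were higher and 30 lower, and 64 of the 71 calls were shared. Same-numbered libraries correlated at 0.101, 0.0296 and 0.0486 in their deviations from the month means, so the numbers were not taken to pair them. Over the named unigenes, 289 alternative values kept direction and side of the threshold, 4 newly passed, 3 no longer passed and 1 reversed. The reversal was ABCG39 Unigene0052785, at 1.34 (adjusted p = 1.7e-07) with its symbol summed, where the rising ABCG39 unigenes enter the sum. Most named unigenes were chosen for a large passing change, so their stability was partly fixed by that choice. Where a symbol has 1 unigene, summing leaves its counts as they were. Over all 71 calls, 54 held on leaving out each library in turn. Depth limits the 67 untested members.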

Other observations

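ARB1 (Unigene0065124), an ABC protein under a fungal symbol, had 20.6 FPKM in the second August library, 0.025 and 0 FPKM in the other August libraries and 0 FPKM in every September library. The lipid importers of the plastid that work with an ABC protein in Arabidopsis were also looked up after values were seen. TGD3 (Unigene0004519), the ATP-binding subunit, went from 8.12 ± 0.912 to 5.11 ± 0.229 FPKM (n = 3 each) and fell by 0.66 on the log2 scale (edgeR adjusted p = 0.0012). TGD1 (Unigene0041182) and TGD2 (Unigene0030217) had log2 fold changes of 0.01 and 0.20 and did not pass (adjusted p = 0.887 and 0.114).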
